A study of Mus musculus with 12 samples.

Results

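Transcript levels were compared between 3 Tet1KO and 3 WT libraries of mouse spermatogonia at 3 months of age, out of 12 libraries in the series, the other libraries being the same genotypes at 11 months. The libraries were taken by their titles, which give age and genotype. All mice were of a C57BL6/129 background, no treatment is named, and each library holds full-length cDNA of 1000 flow-sorted cells, amplified by the Smart-seq2 protocol for small inputs. The labels give neither the gate of the sort, nor what the Tet1KO allele lacks, nor whether replicate libraries stem from different mice, so p-values measure the spread between these libraries, which may be technical. Of 53715 genes counted, 19815 had enough counts to be tested.

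TET1 is a dioxygenase that oxidises 5-methylcytosine in DNA, the first step of active demethylation, and it has a domain that binds unmethylated CpG dinucleotides and so is found mostly at CpG-rich promoters. It also works with repressor complexes, among them SIN3A and polycomb. Spermatogonia are the mitotic germ cells along the tubule wall of the testis. A small undifferentiated fraction self-renews under GDNF from Sertoli cells, the somatic nurse cells of the tubule, and the rest respond to retinoic acid, express Kit and Stra8 and enter meiosis.

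The promoters of 5 genes are shown for reference, each as the 250 bases before the RefSeq transcription start (GRCm38.p6, the patch release of mm10), 5′ to 3′ on the gene's strand, with every CG dinucleotide, the dinucleotide whose methylated cytosine TET enzymes oxidise, in capitals. They belong to Tet1 itself, to T and Zbtb43, which are among the genes with the smallest p values for a higher level in Tet1KO, and to Clcn4 and Akr1b10 from the other end of the comparison. The stretches of Tet1 and Clcn4 lie inside the genes as counted, which run from 62804570 to 62908996 and from 7282309 to 7300851. CG reads the same on both strands. At least 1 CG was present in 97.7% of the 12847 promoters matched to tested genes, with a median of 14, and a count of CG letters does not show that a promoter is methylated.
Tet1, chr10:62887325-62887574, minus strand: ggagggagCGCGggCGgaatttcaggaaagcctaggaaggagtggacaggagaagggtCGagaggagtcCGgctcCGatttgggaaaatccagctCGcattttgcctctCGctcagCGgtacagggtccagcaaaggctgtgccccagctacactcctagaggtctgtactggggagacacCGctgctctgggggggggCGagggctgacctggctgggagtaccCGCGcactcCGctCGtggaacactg
T, chr17:8434173-8434422, plus strand: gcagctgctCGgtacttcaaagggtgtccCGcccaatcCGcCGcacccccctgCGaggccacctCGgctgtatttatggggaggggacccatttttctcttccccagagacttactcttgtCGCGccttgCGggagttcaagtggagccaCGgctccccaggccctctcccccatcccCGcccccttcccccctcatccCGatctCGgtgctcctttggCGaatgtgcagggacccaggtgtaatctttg
Zbtb43, chr2:33468533-33468782, minus strand: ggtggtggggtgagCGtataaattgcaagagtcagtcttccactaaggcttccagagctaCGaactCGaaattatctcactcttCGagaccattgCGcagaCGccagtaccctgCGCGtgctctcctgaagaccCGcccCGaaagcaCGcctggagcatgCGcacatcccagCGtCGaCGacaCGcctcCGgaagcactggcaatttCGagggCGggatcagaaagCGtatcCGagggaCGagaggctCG
Clcn4, chr7:7299558-7299807, minus strand: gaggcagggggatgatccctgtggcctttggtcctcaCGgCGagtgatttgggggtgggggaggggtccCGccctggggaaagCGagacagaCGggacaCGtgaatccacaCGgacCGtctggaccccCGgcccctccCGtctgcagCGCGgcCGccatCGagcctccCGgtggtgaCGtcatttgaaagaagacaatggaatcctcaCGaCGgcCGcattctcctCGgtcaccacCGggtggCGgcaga
Akr1b10, chr6:34383997-34384246, plus strand: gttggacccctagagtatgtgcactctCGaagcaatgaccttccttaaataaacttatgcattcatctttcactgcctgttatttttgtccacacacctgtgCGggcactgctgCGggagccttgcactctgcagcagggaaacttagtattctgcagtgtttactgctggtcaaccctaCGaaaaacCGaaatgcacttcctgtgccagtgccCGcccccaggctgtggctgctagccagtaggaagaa
These stretches hold 15 CG dinucleotides at Tet1, 14 at T, 23 at Zbtb43, 22 at Clcn4 and 6 at Akr1b10. The leading genes in either direction thus included CpG-rich promoters, and Akr1b10 was at the lower quartile of all promoters, 6.

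The germ cell genes of the labelled cell type were present in every library. Levels between genes are compared per length, as RPKM (counts scaled to library size and gene length). Dazl, an RNA-binding protein of germ cells, had a mean of 740 RPKM in WT and 721 RPKM in Tet1KO, and Stra8, induced by retinoic acid, 407 and 373 RPKM. Kit, the receptor of differentiating spermatogonia, had 9.53 and 10.9 RPKM, and the undifferentiated genes Gfra1 and Zbtb16 had 3.98 and 6.26 RPKM and 1.40 and 1.73 RPKM. Sycp3, of the meiotic chromosome axis, stood at 1070 and 893 RPKM (it overlaps Chpt1 on the opposite strand, which unstranded reads do not tell apart), and the spermatid protamine Prm1 at 656 and 380 RPKM. Sox9, a defining Sertoli gene, had 0.404 and 0.135 RPKM. The libraries therefore held transcripts of later germ cells beside those of spermatogonia.

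The 6 libraries did not group by genotype. Total counts ran from 8325159 to 13622729 in WT and from 9623251 to 18223645 in Tet1KO, so that a count of 0 allows up to 3 counts, or 0.162 to 0.402 CPM (counts after scaling for library size). This limit covers counting error only. The first principal component, with 59% of the variance, set WT replicate 1 (score -106.8) and Tet1KO replicate 2 (-98.14) apart from the others, which lay between 10.82 and 86.39. These libraries had 29420 and 30010 genes with a count, against 23874 to 26359 in the other 4. Summed levels of 33 spermatid genes were 7180 and 5152 CPM in them and 992 to 1725 CPM in the others. Where leaving out 1 library turned the direction of a gene list, the value without it stands beside the list.

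Tet1 was near the limit of detection and did not separate the genotypes. Its levels were 1.13, 1.64 and 0 CPM in WT and 0.620, 0.593 and 1.73 CPM in Tet1KO, so the highest of the 6 values was in a Tet1KO library. Counts over the whole gene cannot check the labels, since the exons the allele lacks are not given. Tet3 was the most abundant family member per length, with a mean of 1.65 RPKM in WT and 1.70 RPKM in Tet1KO, against 0.111 and 0.20 RPKM for Tet2 and 0.0599 and 0.0635 RPKM for Tet1. Tet3 stood at 23.8, 30.6 and 28.3 CPM in WT and 34.8, 24.5 and 25.7 CPM in Tet1KO, which overlap. Tet2 stood at 1.36, 2.67 and 1.61 CPM in WT and 4.24, 1.67 and 4.23 CPM in Tet1KO, where 2 of 3 Tet1KO libraries were above all WT libraries (log2 fold change 0.84 ± 0.49, SE, unadjusted p = 0.112). Tet2 overlaps Gm42567 on the opposite strand.

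Among genes that work with TET1 or on DNA methylation, the groups lay close together. Of 20 demethylation partners, which include glycosylases, GADD45 proteins and SIN3A complex members, 12 were higher and 8 lower, with a median log2 fold change of 0.03 (10 and 10 without WT replicate 1). Sin3b, the most abundant of them, stood at 394, 411 and 382 CPM in WT and 414, 423 and 361 CPM in Tet1KO. Gadd45b, a stress-induced partner of demethylation, stood at 18.7, 19 and 26.0 CPM in WT and 16.1, 18 and 17.9 CPM in Tet1KO (log2 fold change -0.29 ± 0.26, SE). It was the 1 member of this list whose libraries did not overlap (5.0%, beside 3.62% of all genes lower without overlap). Of 13 tested genes of DNA methylation, 5 were higher and 8 lower (median -0.06), and none was without overlap. Without Tet1KO replicate 3 the counts were 9 and 4 (0.05), and without WT replicate 3 8 and 5 (0.01). Dnmt3a, a de novo methyltransferase, stood at 40.7, 54.5 and 54.9 CPM in WT and 44.7, 43.1 and 44.7 CPM in Tet1KO. The 22 germline genes that are known to be silenced by promoter methylation in somatic cells had 13 higher and 9 lower members and a median of 0.03, and 10 and 12 (-0.02) without Tet1KO replicate 1. Dazl, their most abundant member in CPM, ran from 1966 to 2503 CPM in WT and from 1732 to 2390 CPM in Tet1KO.

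No gene passed the test across all genes. With edgeR's quasi-likelihood test and Benjamini-Hochberg adjustment at 0.05, 0 of 19815 genes (0.0%) were called. Unadjusted p was under 0.05 for 90 genes higher in Tet1KO (0.454%) and 135 lower (0.681%), 225 in all (1.14%). All 3 Tet1KO libraries lay above all 3 WT libraries for 658 genes (3.32%) and below them for 717 (3.62%), together 1375 genes (6.94%). A higher fold change was found for 46.8% of genes and a lower one for 53.2%, with a median of -0.02. DESeq2 called 1 gene, S100a8, which was counted 192 times in Tet1KO replicate 3 and 0 times in each of the remaining 5, while limma-voom gave 0 calls, with 253 and 563 genes at an unadjusted p under 0.05.

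Precision depended on level. Among the 3942 genes with an average between 5 and 7 log2 CPM the median SE of the log2 fold change was 0.188, and 5 of them had a fold change beyond 1 in either direction on the log2 scale. None of the 1795 genes above 7 log2 CPM did. Among the 4550 genes under 1 log2 CPM the median SE was 0.909, and 734 genes (16.1%) were beyond 1. Large fold changes were thus found almost only among scarce transcripts, where the error was also large, as the plot of fold change by level shows.

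**Figure D1:**
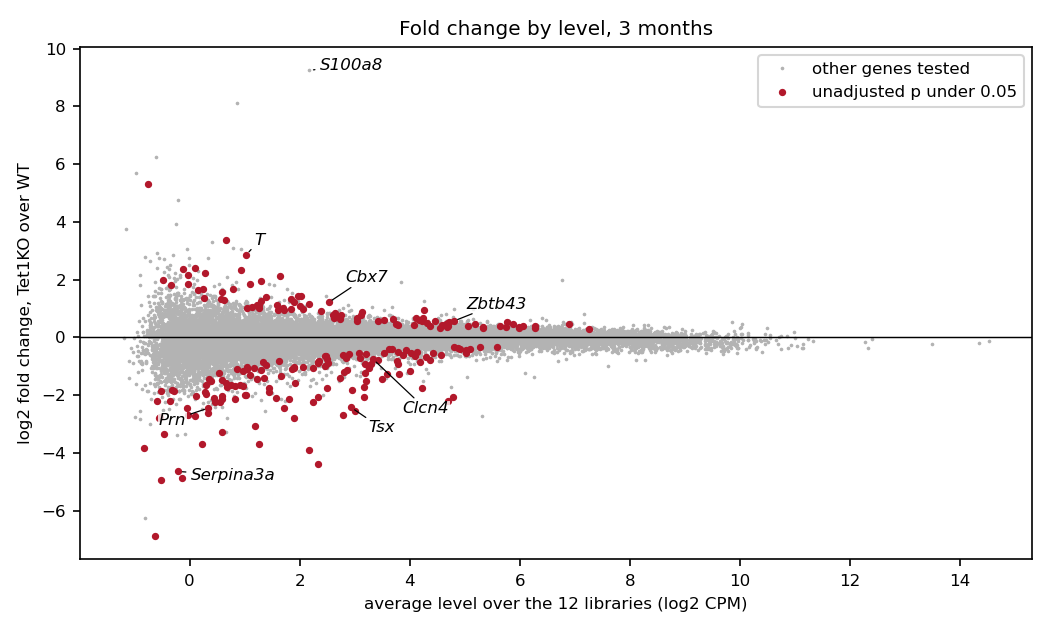
Log2 fold change of Tet1KO over WT at 3 months (vertical axis) against the average level in log2 CPM over the 12 libraries (horizontal axis), with 1 point for each of 19815 genes and the 225 genes with an unadjusted p under 0.05 in red. None of them passed after adjustment, and the points close in on 0 as the level rises.

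The genes with the smallest p values or the widest gaps between groups are described next, as leading values of a comparison without calls. T, the T-box factor Brachyury, which is also a GDNF-responsive gene of undifferentiated spermatogonia (chromosome 17, 8434423 to 8442496, plus strand), stood at 0.378, 1.13 and 0 CPM in WT and 4.24, 3.34 and 3.75 CPM in Tet1KO. All Tet1KO libraries were above all WT libraries, by a log2 fold change of 2.85 ± 0.84 (SE, unadjusted p = 0.00560). Zbtb43, a zinc finger transcription factor gene (chromosome 2, 33450287 to 33468559, minus strand), stood at 19.9, 24.2 and 20.4 CPM in WT and 35.1, 30.6 and 29.7 CPM in Tet1KO. The groups were apart, by 0.57 ± 0.16 (SE, unadjusted p = 0.00468 in edgeR). Both genes have a promoter shown above.

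Ptpn13, a large protein tyrosine phosphatase, stood at 11.6, 14.5 and 11.4 CPM in WT and 29.1, 23.5 and 20.3 CPM in Tet1KO, the widest gap among higher genes of at least 4 log2 CPM on average; it overlaps Gm42620 on the opposite strand. Gbe1, the glycogen branching enzyme, followed with 15.5, 16.4 and 10.9 CPM against 23.6, 22.3 and 21.9 CPM. Their log2 fold changes were 0.96 ± 0.30 and 0.66 ± 0.22 (SE). Ado, a thiol dioxygenase that lies 4.64 Mb from Tet1 on chromosome 10, stood at 43.9, 45.7 and 46.1 CPM in WT and 60.9, 70.4 and 65.9 CPM in Tet1KO (0.54 ± 0.20, SE). Zfp260, a zinc finger gene, had 26.3, 22.7 and 21.1 CPM against 35.9, 33.2 and 33.1 CPM. In these 4 genes every Tet1KO library was above every WT library. Pgpep1, a pyroglutamyl peptidase, Lrrc1, a leucine-rich repeat scaffold protein, and Dhrs13, a short-chain dehydrogenase, were likewise without overlap, with log2 fold changes of 0.66, 0.65 and 0.59.

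Gm26760, a long intergenic non-coding RNA gene that overlaps no other gene, stood at 2.65, 1.95 and 1.88 CPM in WT and 6.20, 4.31 and 4.71 CPM in Tet1KO, without overlap (log2 fold change 1.22 ± 0.40, SE, unadjusted p = 0.00993 in edgeR). The other leading higher genes are uncertain. Myl3, a myosin light chain (0.378, 0.308 and 0.268 CPM in WT, 1.86, 0.809 and 2.02 CPM in Tet1KO), overlaps Pth1r. The unnamed transcripts 9030407P20Rik and Phf2os1 overlap 4930588G17Rik and Phf2, all on opposite strands. Rps2-ps10, a ribosomal protein pseudogene, stood at 7.03, 5.44 and 111 CPM in WT and 174, 162 and 146 CPM in Tet1KO, with WT replicate 3 far above the other WT libraries. How far its counts and those of the parent gene can be told apart is not shown by the table, and counts of overlapping genes can come from either one.

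Among lower genes, Clcn4, a chloride and proton exchanger of endosomes (chromosome 7, 7282309 to 7300851, minus strand), stood at 13.7, 14.1 and 12.1 CPM in WT and 7.96, 7.71 and 7.88 CPM in Tet1KO. The groups were apart and the Tet1KO libraries lay close together (log2 fold change -0.76 ± 0.22, SE, unadjusted p = 0.00463). Hist3h2ba, an H2B histone gene, stood at 8.24, 9.34 and 6.71 CPM in WT and 3.00, 3.07 and 5.10 CPM in Tet1KO (-1.12 ± 0.30, SE). Akr1b10, an aldo-keto reductase, stood at 7.94, 5.64 and 8.05 CPM in WT and 3.20, 3.45 and 4.13 CPM in Tet1KO (-1.0 ± 0.29, SE). Tfr2, a transferrin receptor, stood at 6.35, 5.34 and 5.90 CPM in WT and 3.41, 2.86 and 3.27 CPM in Tet1KO (-0.88 ± 0.26, SE). In each of these genes every Tet1KO library was below every WT library.

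The widest gaps among lower genes of at least 4 log2 CPM on average were those of Ccl3, Txndc15, Gm48632, Defb19, Gm14222 and Tmsb4x. Ccl3, a macrophage chemokine, stood at 19.7, 27.4 and 18.9 CPM in WT and 5.68, 8.84 and 8.56 CPM in Tet1KO, Txndc15, a thioredoxin domain protein, at 22.5, 30.1 and 33.7 CPM against 5.27, 14.8 and 5.38 CPM, and Tmsb4x, the actin-binding thymosin beta 4, at 304, 195 and 226 CPM against 98.0, 145 and 124 CPM. All 3 were without overlap, with unadjusted p values of 0.0585, 0.0461 and 0.0718. The intronic transcript Gm14222 stood at 23.3, 22.7 and 29.9 CPM in WT and 16.3, 16.5 and 16.1 CPM in Tet1KO, and Gm48632, which overlaps Rcor1 on the same strand, at 12.9, 16.4 and 19.05 CPM against 8.06, 4.85 and 8.56 CPM. Defb19 is described with the Sertoli cell genes. Serpina3a, a serine protease inhibitor, was at 3.86, 1.33 and 2.15 CPM in WT and at 0, 0.216 and 0 CPM in Tet1KO, so that only 1 Tet1KO library had any count. The unnamed genes Gm45170 and Gm9112 had log2 fold changes of -2.25 ± 0.67 and -1.74 ± 0.53 (SE), without overlap. The X-linked Gm15020 and Gm6207 overlap each other, and Prn is a read-through of Prnp and Prnd, so that their low values in Tet1KO cannot be assigned to 1 gene.

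**Figure D2:**
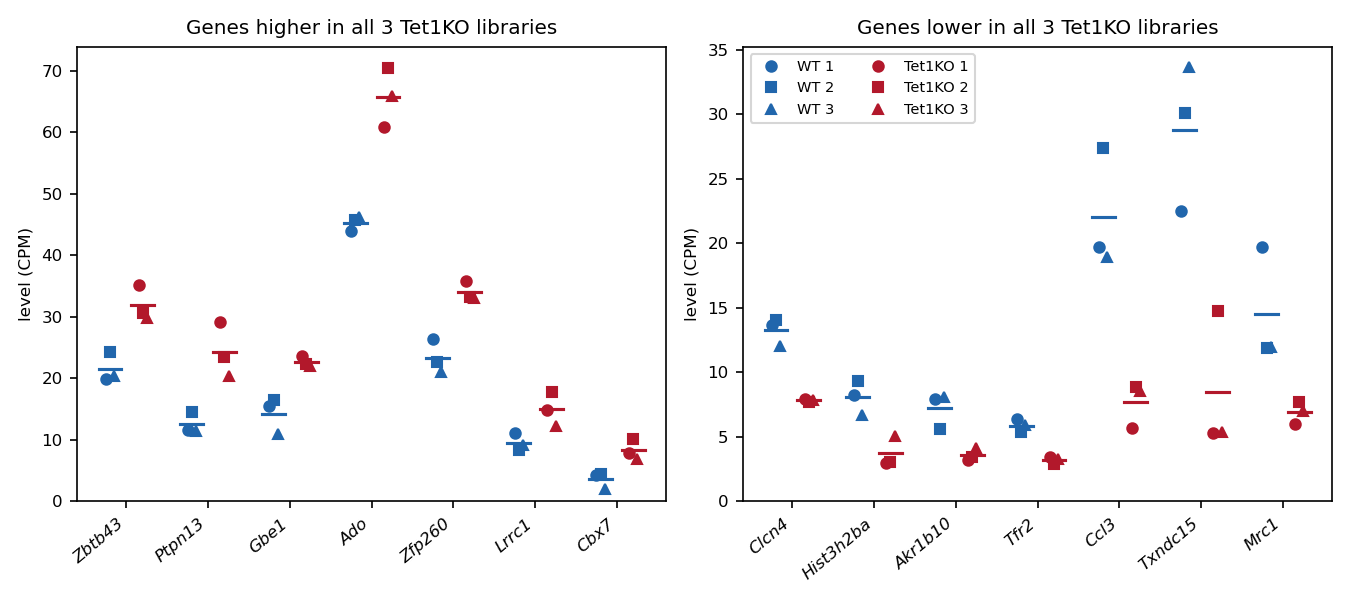
Levels in CPM (vertical axes) of 7 genes higher and 7 genes lower in all Tet1KO libraries, with 1 symbol per library (WT blue, Tet1KO red, circle, square and triangle for replicates 1, 2 and 3) and a bar at the group mean. The Tet1KO values of Clcn4 lie between 7.71 and 7.96 CPM, below the WT values of 12.1 to 14.1 CPM, and those of Ado between 60.9 and 70.4 CPM, above 43.9 to 46.1 CPM.

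The dependence of these orders on single libraries was then examined. The fits reuse the libraries from which the genes were chosen, so they give no independent support. Of the 225 genes with an unadjusted p under 0.05, 27 stayed under it in the same direction without each of the 6 libraries in turn, 11 higher and 16 lower in Tet1KO. T, Zbtb43, Ptpn13, Gbe1, Pgpep1, Clcn4, Hist3h2ba, Akr1b10 and Tfr2 were among the 27, as was Gm26760. The number at that p changed from 225 to 353 without WT replicate 1, with 233 higher, and to 512 without Tet1KO replicate 2, with 413 lower.

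At 11 months, in other libraries, few of these orders were found. Of the 30 leading genes 14 had a difference in mean log2 CPM of the same sign at 11 months, and 3 were without overlap in the same direction, Lrrc1, Prn and Akr1b10. Myl3 and 9030407P20Rik, higher without overlap at 3 months, were lower without overlap at 11 months. Their means at 11 months were 1.48 and 2.11 CPM in WT and 0.830 and 1.15 CPM in Tet1KO. Akr1b10 stood at 7.19, 5.37 and 5.81 CPM in WT and 4.86, 5.12 and 3.43 CPM in Tet1KO at 11 months. Lrrc1 stood at 10.2, 12.8 and 11.8 CPM against 13.6, 15.3 and 15.6 CPM. T stood at 1.45, 1.87 and 0.877 CPM in WT and 0.862, 2.81 and 1.75 CPM in Tet1KO, which overlap. Clcn4 stood at 9.78, 8.46 and 8.55 CPM against 11.9, 9.44 and 7.69 CPM. Of all 658 genes higher without overlap at 3 months, 13 (1.98%) were so at 11 months, beside 2.82% of all genes tested, and of the 717 lower genes 22 (3.07%), beside 2.54%. Of the 90 higher genes with an unadjusted p under 0.05 at 3 months, 5 (5.56%) were higher without overlap at 11 months, and of the 135 lower genes 12 (8.89%) were lower, beside the same 2.82% and 2.54%. The 2 ages share no library, but the p values at 3 months rest on a spread estimated from all 12 libraries. The shares for genes chosen by p are therefore not an independent check. Whether a gene's difference changed with age was not tested.

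Sertoli cell genes had the median farthest from 0 among the lists with at least 3 tested members. Of 29 listed genes 23 had enough counts to be tested, and each of the 23 had a lower value in Tet1KO, beside 53.2% of all genes, and 8 of 23 were lower without overlap, beside 3.62%. The median log2 fold change of the list was -1.58, beside -0.02 over all genes, and 7 members had an unadjusted p under 0.05, beside 0.681%. No member passed after adjustment. The list, and its shift, were known from earlier results of these data. In sorted bulk samples, fewer cells of a type and less RNA per cell cannot be told apart.

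Tsx, an X-linked testis gene, stood at 25.5, 10.4 and 9.66 CPM in WT and 3.93, 1.62 and 2.98 CPM in Tet1KO (log2 fold change -2.43 ± 0.76, SE). Aard, an alanine and arginine rich protein of Sertoli cells, stood at 23.4, 18.1 and 16.9 CPM in WT and 5.17, 11.8 and 3.27 CPM in Tet1KO (-1.52 ± 0.49, SE). Both were without overlap, and WT replicate 1 was the highest library. The X-linked homeobox gene Rhox8 stood at 7.11, 2.67 and 2.42 CPM in WT and 1.45, 0.647 and 0.962 CPM in Tet1KO, and the beta-defensin Defb19 at 122.5, 37.8 and 31.0 CPM against 14.6, 21.1 and 9.81 CPM. The cystatin Cst12 stood at 101.9, 24.6 and 46.8 CPM in WT and 8.79, 21.8 and 6.35 CPM in Tet1KO, and Cldn11, the claudin of the blood-testis barrier, at 9.45, 2.87 and 3.22 CPM against 0.827, 1.46 and 0.288 CPM. These 4 were without overlap too, with WT replicate 1 again far above the other WT libraries.

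Defb36 and Mro were also lower without overlap, with differences in mean log2 CPM of -1.57 and -1.59. The remaining members overlapped. The defining transcription factors were scarce: Sox9 stood at 3.86, 1.03 and 0.134 CPM in WT and 0.723, 0.755 and 0.192 CPM in Tet1KO, and Wt1 at 13.3, 6.36 and 1.21 CPM against 3.82, 3.40 and 2.12 CPM. Dhh, a hedgehog ligand, stood at 4.84, 1.64 and 4.29 CPM in WT and 0.930, 6.68 and 2.98 CPM in Tet1KO, so the highest value was in Tet1KO. Ctsl, a cathepsin that other cells also express, held much of the summed level of the list, with 296 to 410 CPM in WT and 317 to 369 CPM in Tet1KO. With it, the summed levels of the 29 listed genes were 485.6 to 1098 CPM in WT and 413.3 to 491.2 CPM in Tet1KO. Amh, Fshr, Drd4, Gdnf, Shbg and Sox8 were under the filter, and no listed gene was at 0 in all 6 libraries.

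The shift was smaller without WT replicate 1. In that fit 17 of 23 members were lower and the median was -0.65, and without both libraries that stand apart 20 of 23 were lower, with a median of -1.08. At 11 months 21 of the 23 genes had a lower mean log2 CPM in Tet1KO, beside 9620 of all 19815 genes, with a median difference of -0.61, beside 0.0092, and 1 of them was lower without overlap. Aard, Tsx and Cst12 had lower means and overlapping groups at that age, with Tsx at 9.97, 13.5 and 1.10 CPM in WT and 4.56, 4.62 and 2.01 CPM in Tet1KO.

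**Figure D3:**
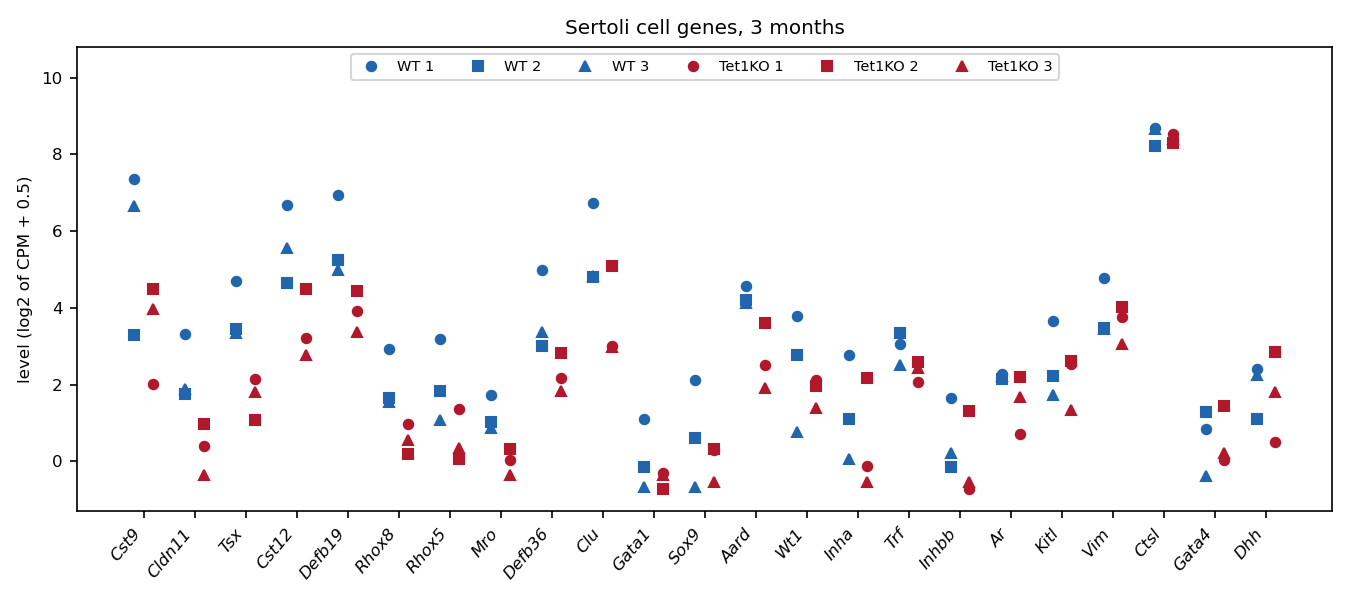
Levels of the 23 tested Sertoli cell genes as log2 of CPM plus 0.5 (vertical axis), ordered by fold change from the lowest, with 1 symbol per library (WT blue, Tet1KO red, circle, square and triangle for replicates 1, 2 and 3). Blue symbols lie above red ones for most genes on the left, with WT replicate 1 often the highest, and the groups mix on the right.

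Lists of other somatic cell types had medians nearer to 0. Of 19 tested leukocyte genes 18 had lower values (median -0.41), 3 of them without overlap (15.8%, beside 3.62%). Mrc1, a macrophage mannose receptor, stood at 19.7, 11.9 and 11.9 CPM in WT and 5.99, 7.71 and 7.02 CPM in Tet1KO (log2 fold change -1.07 ± 0.38, SE, unadjusted p = 0.0170). Csf1r, the receptor for the macrophage growth factor, stood at 25.7, 18.5 and 19.3 CPM against 15.9, 14.4 and 17.2 CPM, and the adaptor Tyrobp at 21.4, 14.5 and 12.8 CPM against 4.55, 10.4 and 10.7 CPM. The MHC class II chain Cd74, at 221, 183 and 97.4 CPM in WT and 113, 136 and 257 CPM in Tet1KO, overlapped. Without Tet1KO replicate 1 the leukocyte median was -0.10, with 15 of 19 lower. Peritubular myoid genes had 8 of 10 higher members (median 0.17) and stromal genes 7 of 10 (0.09), with no member without overlap in either list. Without Tet1KO replicate 2 only 2 of 10 myoid genes (-0.14) and 3 of 10 stromal genes (-0.50) were higher. The muscle actin Acta2 stood at 174, 32.9 and 64.9 CPM in WT and 134, 189 and 31.2 CPM in Tet1KO. Without WT replicate 1 all 10 myoid genes were higher (0.96). Without WT replicate 2 and without WT replicate 3 the myoid median was -0.01, and the stromal median was -0.05 without WT replicate 3. Of 9 tested endothelial genes 4 were higher and 5 lower (-0.20), and of 6 tested neutrophil genes 2 and 4 (-0.40), with no member without overlap. Without WT replicate 1 these counts were 7 and 1 (0.75) and 5 and 1 (1.32). Leydig cell genes were scarce, with 1 of 8 at a level that could be tested. At 11 months the directions of the leukocyte and myoid lists were reversed. All 19 leukocyte genes had a higher mean log2 CPM in Tet1KO at that age (median difference 1.01). Of the 10 myoid genes, 9 had a lower one (-1.65). Whether the makeup of the sorted cells took part in the leading differences was not tested.

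Genes of undifferentiated spermatogonia leaned towards higher values in Tet1KO, but not in every subset of the libraries. Of 36 tested members 23 were higher and 13 lower, with a median of 0.20 and 2 members higher without overlap (5.56%, beside 3.32%). Those were T and Tspan8, a tetraspanin at 9.22, 6.87 and 4.70 CPM in WT and 12.9, 12.8 and 9.23 CPM in Tet1KO, groups that nearly touch. Gfra1, the co-receptor for GDNF (overlapping Gm16277 on the opposite strand), stood at 23.4, 28.0 and 14 CPM in WT and 38.2, 40.4 and 24.1 CPM in Tet1KO (log2 fold change 0.65 ± 0.36, SE, unadjusted p = 0.0956). Its signalling partner Ret stood at 13.9, 31.9 and 18 CPM against 47.9, 30.2 and 18.8 CPM, and the GDNF target Etv5 at 26.0, 35.2 and 18.3 CPM against 45.1, 37.3 and 21.5 CPM. In all 3 genes the WT and Tet1KO libraries overlapped. Zbtb16, the stem cell factor PLZF, stood at 7.79, 7.39 and 6.98 CPM in WT and 10.4, 9.70 and 7.21 CPM in Tet1KO, and Id4, a marker of stem spermatogonia, at 12.8, 12.9 and 6.04 CPM against 20.2, 14.1 and 6.06 CPM. Taf4b, the most abundant member of the list in CPM, leaned the other way. It stood at 183, 175 and 227 CPM in WT and 198.5, 149 and 191 CPM in Tet1KO (log2 fold change -0.12 ± 0.18, SE), which overlap. The 13 lower members reached down to a log2 fold change of -0.69. Ret, Etv5 and Id4 were picked from the list once their values had been seen. Without Tet1KO replicate 1, 16 of 36 members were higher and the median was -0.03. In limma-voom 20 were higher and 16 lower (0.02). The counts were 22 and 14 (0.07) without WT replicate 1 and Tet1KO replicate 2 together.

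In lists of later germ cell stages, the groups overlapped for most members. Of 10 differentiating genes 6 were higher and 4 lower (median 0.09), and 5 and 5 without WT replicate 1 (-0.02). Kit stood at 70.1, 108.8 and 75.8 CPM in WT and 109.8, 77.1 and 105.4 CPM in Tet1KO, and Stra8 at 646, 647 and 910 CPM against 524, 366 and 1126 CPM. Of 34 meiotic genes 14 were higher and 20 lower (-0.12), with 1 higher without overlap (2.94%, beside 3.32% of all genes). That was Majin, a telomere anchor of meiotic chromosomes, at 21.9, 25.9 and 22.3 CPM in WT and 32.6, 28.0 and 30.1 CPM in Tet1KO. The meiotic counts turned to 23 higher and 11 lower without WT replicate 3 (0.11) and in limma-voom (0.10), and were 17 and 17 without Tet1KO replicate 2. Of 22 genes of germ cells in general 9 were higher and 13 lower (-0.03), 16 and 6 without WT replicate 1 (0.09) and 12 and 10 without Tet1KO replicate 3 (0.04). Spermatid genes had 26 of 33 lower members (-0.31; 14 of 33 without Tet1KO replicate 1), but 32 of 33 were higher without WT replicate 1 (0.90) and all 33 lower without Tet1KO replicate 2 (-1.11), and without both the median was -0.01. Ldhc, a testis lactate dehydrogenase, stood at 1545, 173 and 97.4 CPM in WT and 47.3, 1590 and 199.6 CPM in Tet1KO. Each genotype thus held 1 library with high spermatid transcripts and 2 with low ones.

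**Figure D4:**
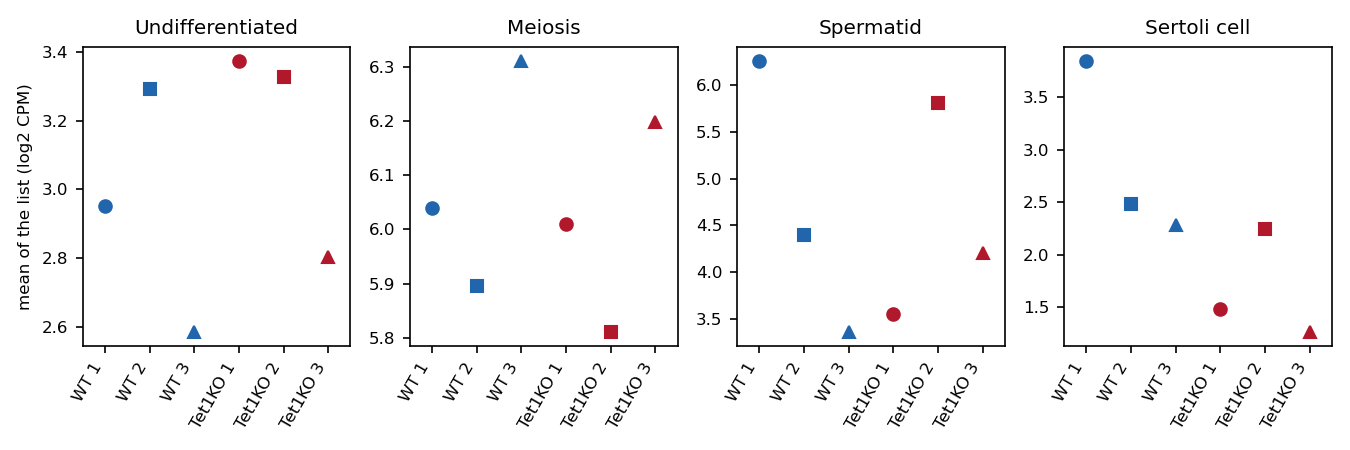
Mean level of 4 gene lists in log2 CPM (vertical axes, a scale of its own in each panel) in each library (WT blue, Tet1KO red). Spermatid genes set WT replicate 1 and Tet1KO replicate 2 apart in both genotypes, and for Sertoli cell genes the WT libraries lie above the Tet1KO libraries, with WT replicate 3 (2.28) and Tet1KO replicate 2 (2.25) nearly level.

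Polycomb genes, many of whose targets TET1 also occupies in stem cells, were balanced, with 17 of 31 higher and 14 lower and a median of 0.01. Without WT replicate 1 and without Tet1KO replicate 3, 11 were higher and 20 lower (-0.05 and -0.04), and without Tet1KO replicate 1, 13 and 18 (-0.03). 3 members were higher without overlap (9.68%, beside 3.32%) and 0 lower. Cbx7, a chromobox reader of trimethylated H3K27 in the canonical complex PRC1, stood at 4.23, 4.41 and 2.01 CPM in WT and 7.86, 10.1 and 6.83 CPM in Tet1KO (log2 fold change 1.21 ± 0.41, SE, unadjusted p = 0.0119), and it overlaps Apobec3 on the opposite strand. Scmh1, a PRC1 accessory protein, stood at 21.3, 19.8 and 20.9 CPM in WT and 24.5, 25 and 28.8 CPM in Tet1KO (0.34 ± 0.15, SE). The histone chaperone Rbbp7, shared by PRC2 and SIN3 complexes, stood at 407, 473 and 419 CPM against 480, 473.2 and 477 CPM, groups that almost touch. Of the catalytic subunits of PRC2, Ezh1 stood at 34.8, 40.4 and 32.6 CPM in WT and 45.6, 39.6 and 42.4 CPM in Tet1KO (0.24 ± 0.13, SE, unadjusted p = 0.0961 in edgeR), and Ezh2 at 58.0, 63.6 and 88.4 CPM in WT and 64.4, 52.5 and 82.9 CPM in Tet1KO, which overlap. The core subunit Suz12 stood at 193, 191 and 291 CPM against 235, 161 and 220.5 CPM. At 11 months Cbx7 stood at 3.41, 6.94 and 4.28 CPM in WT and 3.69, 7.03 and 6.18 CPM in Tet1KO, which overlap.

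Retinoic acid genes were balanced as well, with 7 of 15 higher and 8 lower (median -0.07), and 8 and 7 without WT replicate 1 (0.02). Leaving out Tet1KO replicate 1 (0.02) or replicate 3 (0.08) gave these counts too. The nuclear receptor Rxra stood at 3.93, 6.05 and 4.16 CPM in WT and 6.72, 8.68 and 6.63 CPM in Tet1KO (log2 fold change 0.64 ± 0.28, SE, unadjusted p = 0.0435), and the synthesis enzyme Aldh1a2 at 42.5, 31.4 and 38.4 CPM against 55.0, 44.4 and 43.8 CPM. Both were without overlap, the 2 such members of the list (13.3%, beside 3.32% of all genes). Cyp26a1, which degrades retinoic acid, stood at 5.90, 3.49 and 0.939 CPM in WT and 1.45, 1.19 and 1.15 CPM in Tet1KO.

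Genes of translation and respiration had lower values in Tet1KO, by less without WT replicate 3. Of 76 ribosomal protein genes 73 had lower values, with a median of -0.34, and 25 were lower without overlap (32.9%, beside 3.62%). Rpl27 stood at 321, 330 and 526 CPM in WT and 278, 263 and 281 CPM in Tet1KO (log2 fold change -0.52 ± 0.32, SE, unadjusted p = 0.129), and Rps12 at 147, 136 and 164 CPM against 115, 122 and 99.9 CPM. WT replicate 3 was the highest library in both. The summed level of the list was 67980 CPM in WT replicate 3 and 43180 to 46830 CPM in the other 5 libraries, and without it 55 of 76 were lower, with a median of -0.04. Nuclear genes of the respiratory chain had 60 of 77 lower members (-0.23), and 33 of 77 without WT replicate 3 (0.02). Of the 77, 7 were lower without overlap (9.09%, beside 3.62%) and 2 higher (2.60%, beside 3.32%). Ndufa3, a complex I subunit, stood at 256, 336 and 401 CPM in WT and 208, 229 and 246 CPM in Tet1KO (log2 fold change -0.54). Ndufa10 and Ndufa9, next to it by p value in this list, were higher, with log2 fold changes of 0.30 and 0.21.

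The mitochondrially encoded genes depended less on that library. Of 13 genes 12 had lower values (median -0.25, and -0.16 without WT replicate 3), 3 of them without overlap (23.1%, beside 3.62%). mt-Co2, a subunit of cytochrome c oxidase, stood at 911, 742.5 and 820.5 CPM in WT and 681, 621.5 and 559 CPM in Tet1KO (log2 fold change -0.41 ± 0.22, SE, unadjusted p = 0.0829). mt-Nd3, of complex I, stood at 22.2, 23.4 and 25 CPM against 16.9, 16.2 and 15 CPM. The mitochondrial genes held 8.33% to 9.20% of all counts in WT and 7.47% to 8.58% in Tet1KO. Glycolysis genes had 16 of 19 higher members (0.12), with Pgam1, phosphoglycerate mutase, at 53.6, 74.1 and 37.3 CPM in WT and 66.0, 81.9 and 53.9 CPM in Tet1KO, which overlap. Without Tet1KO replicate 2 the glycolysis median was near 0, at 0.0012. At 11 months these lists leaned the other way. A higher mean log2 CPM in Tet1KO was then found for 58 of 76 ribosomal protein genes (median difference 0.06). The same held for 45 of 77 nuclear respiratory chain genes (0.02) and 8 of 13 mitochondrially encoded genes (0.08). Of the 19 glycolysis genes, 13 were lower at that age (-0.06).

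Cell cycle, proteasome, telomere and imprinted genes had medians within 0.1 of 0 with all libraries. Cell cycle genes had 20 of 34 higher members (0.03), proteasome genes 22 of 38 (0.01), telomere genes 10 of 17 (0.05) and imprinted genes 19 of 33 (0.06). Without WT replicate 1 the cell cycle and proteasome genes had 17 of 34 and 19 of 38 higher, and the telomere genes 8 of 17 (-0.02). Without Tet1KO replicate 1, 8 of 17 telomere genes (-0.09) and 16 of 33 imprinted genes (-0.06) were higher. Among CDK inhibitors and p53 genes 8 of 14 were lower (-0.07), and 6 of 14 without WT replicate 2 (0.08) or Tet1KO replicate 3 (0.06). 2 of the 14 were lower without overlap (14.3%, beside 3.62%): Cdkn2b, at 7.94, 8.11 and 10.9 CPM in WT and 7.03, 4.91 and 6.44 CPM in Tet1KO, and Cdkn2a, at 2.72, 2.77 and 3.09 CPM against 1.14, 1.29 and 2.60 CPM. Both encode INK4 inhibitors of the cyclin D kinases, whose own list had a median of 0.00043 (-0.03 without WT replicate 3 and -0.02 without Tet1KO replicate 2). Psmc5, an ATPase of the proteasome, stood at 99.7, 97.6 and 78.0 CPM in WT and 117, 134 and 124 CPM in Tet1KO, without overlap (log2 fold change 0.45 ± 0.24, SE). Stress response genes had 16 of 27 lower members (-0.15), and 12 of 27 without Tet1KO replicate 3 (0.05). 3 of them, the transcription factors Atf3 and Egr3 and the heat shock protein gene Hspa1b, were lower without overlap (11.1%, beside 3.62%). Atf3 stood at 46.3, 39.5 and 29.9 CPM in WT and 27.1, 24.5 and 18.7 CPM in Tet1KO (log2 fold change -0.72 ± 0.48, SE). None of the 12 two-cell stage genes reached the filter.

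**Figure D5:**
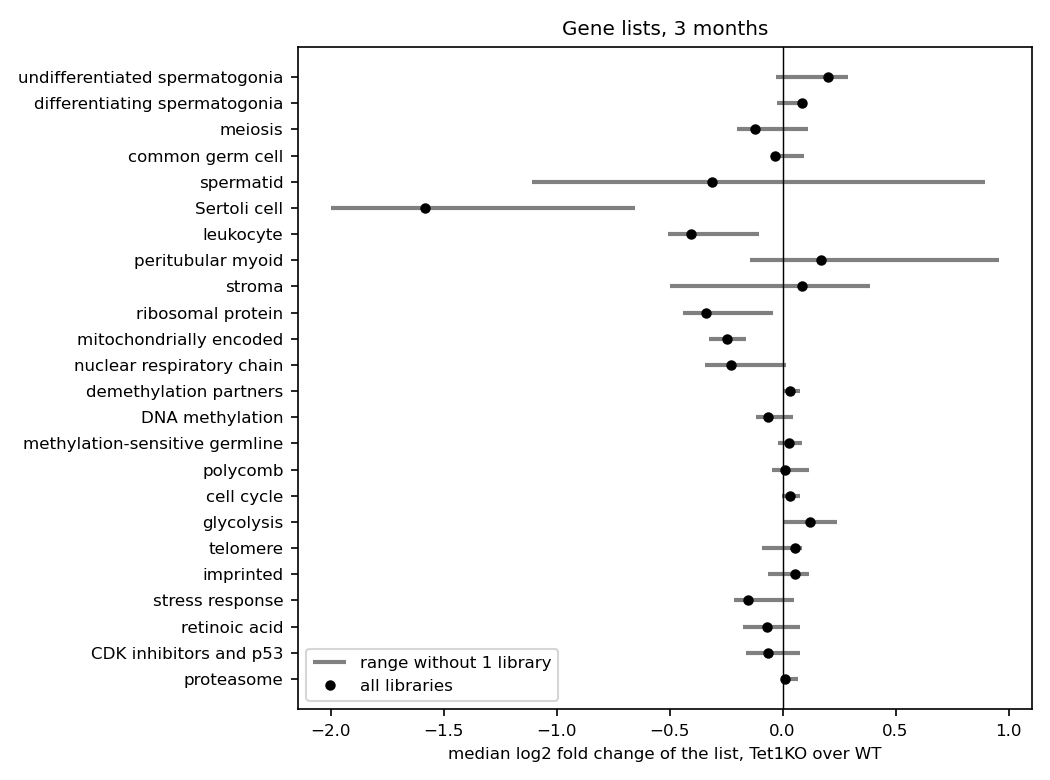
Median log2 fold change of Tet1KO over WT (horizontal axis) for 24 gene lists, with a point for all libraries and a bar for the range when 1 library is left out. The Sertoli cell point (-1.58) lies farthest from 0 and its bar stays below 0, while the spermatid bar reaches from -1.11 to 0.90.

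Promoters were then divided by CpG content, since TET1 binds CpG-rich DNA. Of 12847 tested genes with a RefSeq promoter, 7708 were CpG-rich, with an observed to expected CpG ratio of at least 0.6 and at least 50% G and C over 300 bases (250 before to 50 after the start). Their median log2 fold change was 0.01, against -0.07 for the other genes. In each library the median deviation of CpG-rich genes minus that of other genes was -0.39, 0.02 and 0.26 log2 CPM in WT and 0.20, -0.31 and 0.12 in Tet1KO. WT replicate 1 and Tet1KO replicate 2, which stand apart, had the lowest values. The genotypes differed by 0.0375 log2 CPM (WT -0.04 ± 0.33, Tet1KO 0.00185 ± 0.27, SD, n = 3 each), less than the spread within either group (exact two-sided permutation p = 0.8, where 0.1 is the smallest that 3 against 3 libraries allow).

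Genes around the Tet1 locus were given separately, as a knockout allele is inherited with its neighbourhood. Of 136 tested genes whose lower coordinate lies within 10 Mb of that of Tet1, 52 were higher and 84 lower (median -0.09). Without WT replicate 1 the counts were 78 and 55 (0.10), and with the replicate number as a block 65 and 71 (-0.01). With all libraries, 6 genes in each direction were without overlap (4.41%, beside 3.32% and 3.62%). Beside Ado, Sh3rf3, a ubiquitin ligase, stood at 2.80, 1.95 and 2.15 CPM in WT and 6.61, 2.97 and 3.75 CPM in Tet1KO, and Gja1, the gap junction protein connexin 43, at 13.9, 3.18 and 3.62 CPM against 0.310, 3.07 and 0.288 CPM. The gap between groups was small in both, 0.08 and 0.05 log2 CPM. Mypn and Srgn, which lie 0.207 Mb and 0.277 Mb from the ends of Tet1, had log2 fold changes of 0.72 and -0.69 with unadjusted p values of 0.336 and 0.365.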

How the data were processed

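The authors deposited raw counts per gene and library, made per the file headers by featureCounts 1.6.2 on GENCODE vM17, without strand, with mapping quality of at least 30, and with multi-mapping fragments and fragments over several genes counted, so overlapping genes can share reads; how many multi-mapping fragments reached that mapping quality is not shown by the table. Reads were handled with HISAT2 and SAMtools on mm10 per the submitters' processing notes, with versions not given in the sources used here. Symbols were matched for 53620 of 53715 genes.

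From these counts, edgeR 4.0.16 in R 4.3.3 (TMM scaling, filterByExpr, robust quasi-likelihood F test, two-sided, Benjamini-Hochberg at 0.05) was fitted to all 12 libraries with 1 mean per group, and the contrast of Tet1KO minus WT at 3 months was taken. SE was derived from F. CPM use TMM-scaled library sizes, and log2 CPM a prior count of 2. The procedure was tested on simulated data. Pairs of replicates differed by more than counting noise, and each was counted as 1 sample. Alternatives were other scalings and filters, DESeq2 1.42.0, limma-voom (limma 3.58.1), subsets of libraries and a replicate block.

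Genes were named by a rule: the Tet family and stage genes, the 10 smallest p values and 6 widest gaps (average of at least 4 log2 CPM) in each direction, the highest member and the 3 smallest p values of each list, and the 3 smallest near Tet1. Other members named (Cst12, Cldn11, Defb36, Mro, Wt1, Dhh, Ret, Etv5, Id4, Ezh2, Suz12, Egr3, Hspa1b, Mypn and Srgn) were picked once their values had been seen. The comparison and the lists were chosen with earlier results of these data known. Promoter sequences are from RefSeq (GRCm38.p6), coordinates of genes from the deposited table (mm10).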

Additional observations from a re-analysis of the deposited data

How the results depend on the processing

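Under 16 of 17 alternatives 0 genes passed the threshold, and DESeq2 called 1. The count at an unadjusted p under 0.05 (225) was 398 without a filter on low counts, 563 in limma-voom, and ran from 159 to 512 without 1 library. The share of those genes higher in Tet1KO (90 of 225) was 66.0% without WT replicate 1, 58.4% without WT replicate 2, 19.3% without Tet1KO replicate 2 and 55.6% with only the libraries of the AK code, and other scalings moved it to at most 41.9%. Deviations of same-numbered libraries from their group means correlated at -0.589, -0.182 and 0.296. The value was 0.706 for WT replicate 1 and Tet1KO replicate 2, the libraries that stand apart. With 3 libraries a group these values depend on each other, so they cannot decide whether replicate numbers mark pairs. With the replicate number as a block 0 genes passed, and 367 had an unadjusted p under 0.05. The promoter CpG difference (0.0375 log2 CPM) was 0.00516 with a ratio limit of 0.75 and ran from -0.139 to 0.194 without 1 library, being -0.14, -0.06 and -0.02 when WT replicate 1, Tet1KO replicate 1 or Tet1KO replicate 3 was left out. Of 143 named genes 107 kept their sign under all 17 alternatives, counting only the fits that tested a gene (7 were not tested in some). Of 30 lists 7 kept the sign of their median, among them Sertoli cell (-2.00 to -0.65 without 1 library), leukocyte, ribosomal protein and mitochondrially encoded genes. These fits concern 3 months. Of the lists named here, only the Sertoli cell genes were mostly lower in Tet1KO at 11 months too. The cause was not tested. Under 1 log2 CPM the median SE was 0.909, against 0.188 between 5 and 7 log2 CPM, so smaller differences were not detectable there. Among genes of at least 3 log2 CPM, 25 of 200 simulated 2-fold changes were called (12.5%), and of 4-fold changes 170 of 200 (85%). The simulated libraries were drawn independently, without the differences that set WT replicate 1 and Tet1KO replicate 2 apart. The absence of calls therefore does not exclude 2-fold changes at higher levels either.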

Other observations

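Processed pseudogenes leaned lower in Tet1KO: of 1027 tested, 87 were lower and 29 higher without overlap. The counts were 453 and 510 of 14874 protein-coding genes, and 717 (3.62%) and 658 (3.32%) of all 19815 genes. Multi-mapping fragments were counted. How far this lean rests on WT replicate 3, the library highest in ribosomal protein transcripts, was not tested. On the mitochondrial chromosome 30 of 33 genes were lower, 9 of them without overlap (27.3%, beside 3.62% of all genes lower without overlap). The neutrophil genes S100a8 and S100a9 were counted 192 and 87 times in Tet1KO replicate 3, with 0 counts elsewhere at this age. Without WT replicate 1 and Tet1KO replicate 2 together, 235 genes had an unadjusted p under 0.05, 100 of them higher in Tet1KO, and 81 of the 235 were among the 225 found with all libraries.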
